A study of Mus musculus with 3 samples.

Results

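The genes described here are 65 DNA repair genes, out of 24467 genes listed, in a bortezomib-resistant mouse myeloma line. They were chosen by symbol and not by a rule on measured values, although earlier results of these data were known. The choice took the Fanconi anaemia (Fanc), Brca, Rad50 to Rad54, Xrcc, Ercc, Msh, Mlh, Pms, Parp and DNA ligase families, plus 12 further genes such as Atm, Atr, Prkdc and Mgmt. Polyadenylated RNA was sequenced from 5TGM1.BRE cells, a derivative of the 5TGM1 myeloma that arose in C57Bl/KaLwRij mice. Bortezomib inhibits the proteasome. The cells are described as engraftable and as taken from the marrow of C57BL/KaLwRij mice. They were grown in 10 nM of the drug, in IMDM with 20% fetal bovine serum, and kept off it for 72 h or more before RNA was taken from 10000000 cells per sample. All 3 libraries belonged to this 1 group, so no sensitive cells were compared here and no change with resistance was measured. The label of replicate 1 omits the clause on resistance that the labels of replicates 2 and 3 carry, although its title is that of a resistant sample. The labels do not say whether the samples were separate cultures, so the SDs and p-values measure only how these 3 samples differed, and part of that may be technical.

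Cells repair DNA by several routes that divide the work by the kind of damage. Breaks of both strands are sensed by the MRE11-RAD50-NBS1 complex and the ATM kinase, and are either copied back from the sister chromatid by homologous recombination or rejoined directly by the Ku and DNA-PK machinery. Crosslinks between strands are opened by the Fanconi anaemia pathway, bulky lesions are cut out by nucleotide excision repair, copying errors are corrected by mismatch repair, and damaged single bases or nicks are handled by base excision repair with PARP1 and XRCC1. O6-alkylguanine is reversed in 1 step by the protein that Mgmt encodes. In B-lineage cells some of these proteins also serve antibody gene rearrangement and class switching.

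Library totals were 45705994 to 62303493 counts. Of 9 plasma cell markers, 8 were at 1 CPM or more in all libraries (CPM is a count scaled to a library total of 1000000), with summed levels of 4500 to 4610 CPM. The exception was Tnfrsf17, at 0.66, 0.42 and 0.67 CPM in replicates 1, 2 and 3. Of 7 other B cell markers 1, Ms4a1, was at 1 CPM or more in all libraries, with sums of 2.02 to 3.11 CPM and Bcl6 and Cr2 at 0. None of 8 T and NK cell, 8 myeloid and 7 erythroid or megakaryocyte markers reached 1 CPM, with sums of at most 0.482, 0.488 and 0.372 CPM. The defining genes Cd3e, Ncr1, S100a8, S100a9 and Hbb-bs were at 0, and Pecam1 was the 1 gene of 9 stromal and endothelial markers above the limit (sums of 6.15 to 6.72 CPM). Replicate 3 stood apart from the other 2 libraries over all genes, with long transcripts lower and short ones higher, so results are given per library.

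Nearly the whole repair set was detected. Of the 65 genes, 61 (93.8%) were at 1 CPM or more in all 3 libraries, where 40.9% of all listed genes were, and 56 were at 10 CPM or more. Levels are compared between genes in TPM, the count per kilobase of union exon length scaled to a library sum of 1000000. The TPM of replicate 3 was lower than the mean of the others for a typical tested gene, by a median log2 difference of -0.13, so TPM is used to compare genes and CPM to compare libraries. By TPM the 61 genes had a median of 16.8 TPM, against 28.6 TPM over the 10016 genes that reached that limit, and 17 of the 61 lay above the latter value. By union exon length, most of the set was thus detected at levels below the typical expressed gene. This comparison is not given with other gene lengths. The 4 genes under 1 CPM were Mgmt and Rad51ap2 with no counts, Fancd2os with 0, 2 and 1 counts, and Msh4, a meiotic MutS protein, with 20, 13 and 19 counts.

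**Figure D1:**
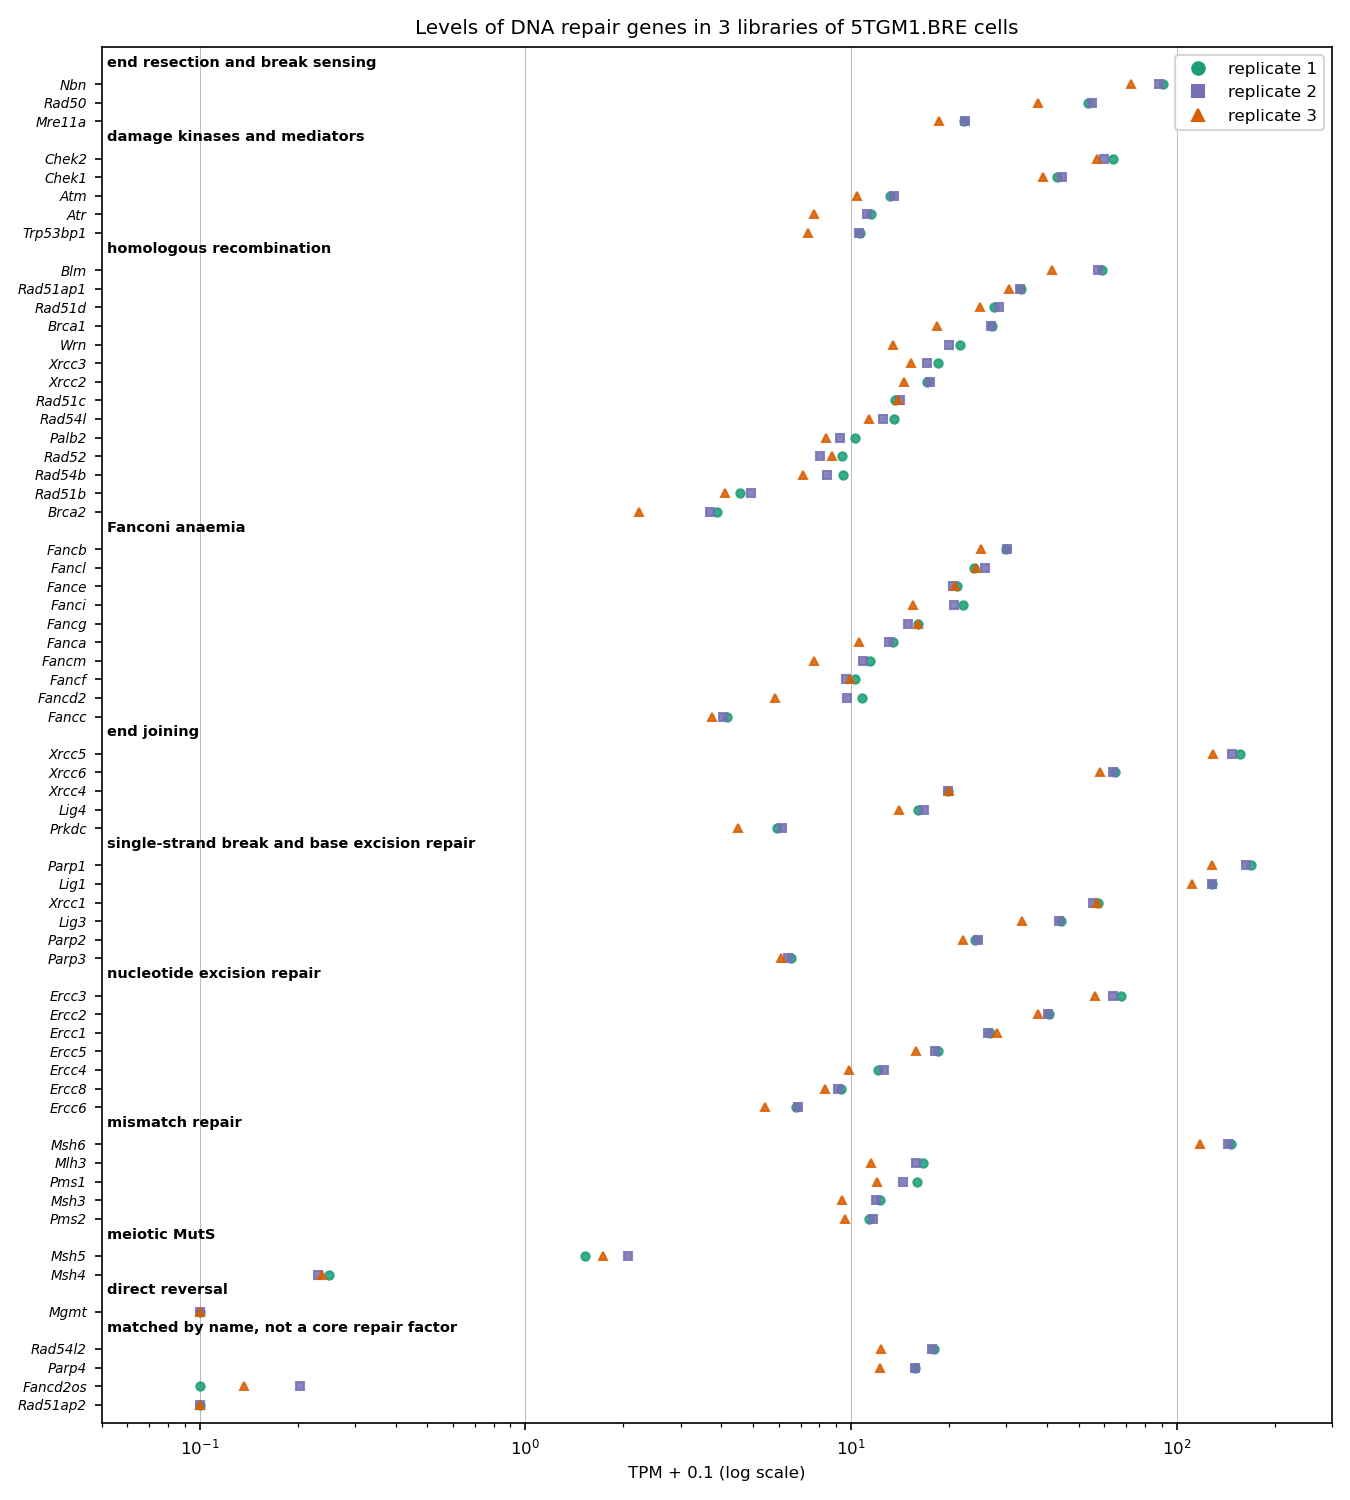
Level of 62 of the 65 genes in each library, in TPM + 0.1 on a log axis, ordered by role and by mean level within a role. Parp1, Xrcc5, Msh6 and Lig1 lie above 100 TPM in every library, while Mgmt and Rad51ap2 sit at 0 in all 3.

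Mgmt was not detected in any library. It lies on chromosome 7 from 136894614 to 137130266, plus strand (GRCm38) and had 0 counts in each of 3 libraries. A count of 0 allows up to 3 counts, which is 0.0482, 0.0656 and 0.0505 CPM in replicates 1, 2 and 3, and 0.0179 CPM over all 167411705 counts. These limits account for counting error alone, because reads copied by PCR do not count molecules independently. The other direct-reversal enzymes of the fixed lists, the oxidative demethylases Alkbh2 and Alkbh3, were at 67.0 ± 6.63 TPM and 35.3 ± 1.07 TPM (SD, n = 3 for each). The region around Mgmt held both undetected and expressed genes. Of 12 protein-coding genes that start within 2 Mb of it, 6 were at 1 CPM or more in all libraries and 5 had 0 counts. The nearest expressed gene on the upstream side was Mki67, the proliferation antigen, whose start lies 1178 kb away and which was at 609 ± 92.6 CPM (SD, n = 3). On the other side Ebf3 had a single count in all, and 9430038I01Rik and the glutaredoxin gene Glrx3, 516 and 543 kb away, were at 24.5 ± 2.52 CPM and 154 ± 8.88 CPM (SD, n = 3 for each).

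**Figure D2:**
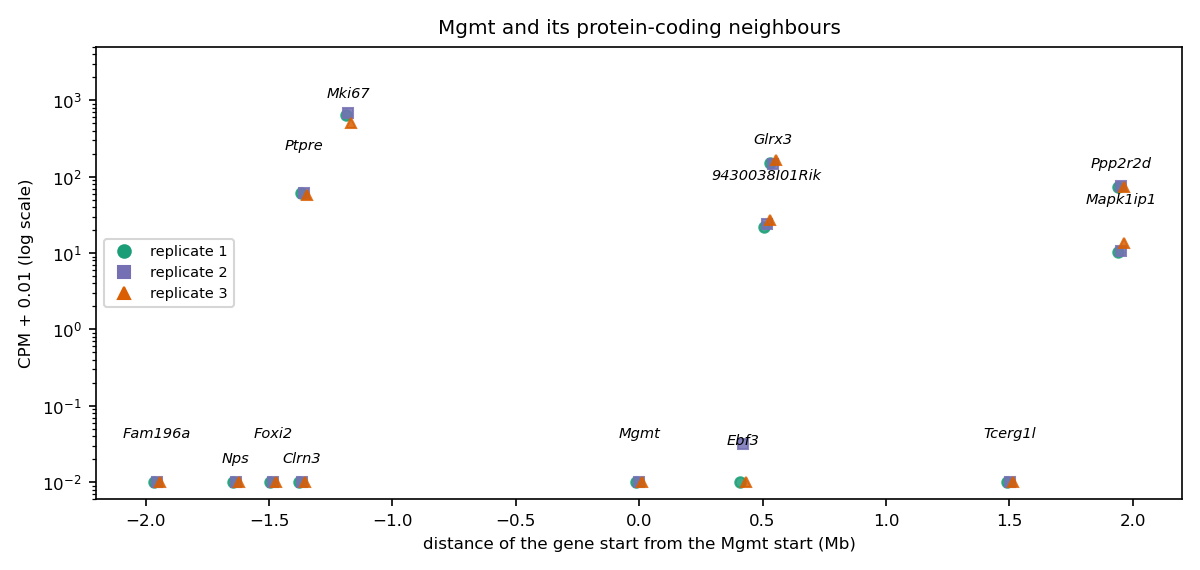
CPM + 0.01 (log axis) of Mgmt and its 12 protein-coding neighbours in each library, against the distance of each gene's start from that of Mgmt. Mgmt lies at 0 between the expressed genes Mki67 and Glrx3.

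The promoters of the undetected genes Mgmt and Rad51ap2 are shown beside those of the highly expressed Parp1 and Msh6 to compare their CpG content (a C followed by a G), a feature of many broadly used promoters. Each is the 250 bases before the RefSeq start (GRCm38.p6), 5′ to 3′ on the gene's strand, with every CpG in capitals.
Mgmt (chr7:136894336-136894585, plus strand): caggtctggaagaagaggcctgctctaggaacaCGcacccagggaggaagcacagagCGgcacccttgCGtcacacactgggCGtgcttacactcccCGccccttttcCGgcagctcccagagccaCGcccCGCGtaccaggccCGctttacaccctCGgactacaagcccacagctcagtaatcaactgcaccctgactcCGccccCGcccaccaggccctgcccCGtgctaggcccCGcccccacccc
Rad51ap2 (chr12:11455805-11456054, plus strand): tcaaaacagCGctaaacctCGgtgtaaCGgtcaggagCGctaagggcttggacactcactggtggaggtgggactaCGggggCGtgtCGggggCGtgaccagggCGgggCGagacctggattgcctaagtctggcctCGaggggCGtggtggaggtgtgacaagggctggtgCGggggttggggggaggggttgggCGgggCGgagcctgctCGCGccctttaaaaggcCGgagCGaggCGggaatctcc
Parp1 (chr1:180568641-180568890, plus strand): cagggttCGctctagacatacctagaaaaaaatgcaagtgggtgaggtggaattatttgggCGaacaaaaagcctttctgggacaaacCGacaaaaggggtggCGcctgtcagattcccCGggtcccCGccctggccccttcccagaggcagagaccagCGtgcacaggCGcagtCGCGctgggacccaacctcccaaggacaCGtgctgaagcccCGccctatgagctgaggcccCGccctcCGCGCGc
Msh6 (chr17:87974800-87975049, plus strand): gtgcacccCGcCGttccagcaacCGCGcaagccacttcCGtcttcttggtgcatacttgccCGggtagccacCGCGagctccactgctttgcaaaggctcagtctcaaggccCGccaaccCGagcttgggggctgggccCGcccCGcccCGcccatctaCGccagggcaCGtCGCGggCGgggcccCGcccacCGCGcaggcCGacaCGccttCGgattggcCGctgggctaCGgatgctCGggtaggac
Mgmt has 15 CpG and Rad51ap2 20, against 16 in Parp1 and 27 in Msh6. Over 4065 genes at 0 counts with a promoter in the RefSeq table the median was 3, and 14.4% had 15 or more. Over 6905 genes at 1 CPM or more it was 17, and 60.7% had 15 or more. Both undetected genes thus had CpG numbers in the range of the expressed genes (interquartile range 11 to 23).

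Among the sensors of double-strand breaks, Nbn, which encodes NBS1, was the highest at 90.5, 88.0 and 72.2 TPM in replicates 1, 2 and 3. Rad50, the ATPase of the complex, was at 53.4, 54.9 and 37.4 TPM and Mre11a, its nuclease, at 22.2, 22.2 and 18.5 TPM. By CPM too, replicate 3 was the lowest for each of the 3 genes. The same held for 47 of the 62 members tested, and for 48.2% of all tested genes. Within a library Rad50 exceeded Mre11a by 1.20 ± 0.16 on the log2 scale per kilobase (SD, n = 3), a 2.29-fold difference. This is 1 of 13 ratios between partner genes described here, of 16 computed. Each of the 13 had the same sign in 3 of 3 libraries and gave p = 0.25 in an exact permutation test that flips signs (two-sided) (0.25 after Benjamini-Hochberg adjustment over the 16), the smallest that n = 3 allows. No ratio could therefore pass a threshold of 0.05.

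The checkpoint kinases that act downstream were higher than the apical ones. Chek2, the effector of ATM, was at 63.6, 59.7 and 57.0 TPM, and Chek1, the effector of ATR, at 42.8, 44.3 and 38.8 TPM. Chek1 was 1.43-fold below Chek2 (log2 -0.52 ± 0.08, SD, n = 3). Atm, the kinase that responds to breaks, was at 13.1, 13.5 and 10.4 TPM, Atr, which responds to stalled forks, at 11.4, 11.1 and 7.60 TPM, and Trp53bp1, which protects ends from resection, at 10.5, 10.5 and 7.29 TPM. The order of Atm and Atr depends on the length taken for Atr, whose union of exons is 23629 bases: Atm was 1.24-fold higher by it (log2 0.30 ± 0.13, SD, n = 3), and 2.24-fold lower with the longest transcript as the length (log2 -1.17).

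All 15 genes of homologous recombination were expressed, over a range from 3.17 ± 0.904 TPM for Brca2 to 52.5 ± 9.66 TPM for the Bloom helicase gene Blm (SD, n = 3 for each). Brca2, a tumour suppressor gene of this route, was at 3.79, 3.58 and 2.13 TPM, with replicate 3 the lowest. Brca1, which promotes resection and brings in PALB2, was at 27.1, 26.8 and 18.2 TPM, and Palb2, the bridge between BRCA1 and BRCA2, at 10.2, 9.16 and 8.27 TPM. Brca1 exceeded Palb2 2.58-fold (log2 1.36 ± 0.21, SD, n = 3), or 1.71-fold with the longest transcripts.

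The paralogs that assist filament formation differed in level. Rad51d was at 26.8 ± 1.83 TPM, Xrcc3 at 16.8 ± 1.58 TPM, Xrcc2 at 16.3 ± 1.63 TPM and Rad51c at 13.8 ± 0.245 TPM (SD, n = 3 for each). Rad51b was the lowest paralog at 4.43 ± 0.412 TPM (SD, n = 3). Levels of Xrcc2 and Xrcc3 by union exons differed by less than their spread. With the longest transcripts their means were 19.1 and 13.9 TPM. Rad51ap1, a recombination cofactor, was at 32.2 ± 1.44 TPM, Rad54l and Rad54b, translocases of strand exchange, at 12.4 ± 1.09 TPM and 8.23 ± 1.17 TPM, and the annealing factor Rad52 at 8.63 ± 0.671 TPM (SD, n = 3 for each). Wrn, the Werner helicase gene, was at 18.3 ± 4.31 TPM (SD, n = 3).

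By union exons the 10 Fanconi anaemia genes spanned 3.88 ± 0.215 TPM for Fancc to 28.2 ± 2.89 TPM for Fancb (SD, n = 3 for each). Both ends depend on the length taken. With the longest transcripts, the lowest mean levels were those of Fancf (7.18 TPM) and Fancc (7.47 TPM). The highest were then Fancl (22.1 TPM) and Fance (22.0 TPM), with Fancb at 20.6 TPM. Fancl, the ubiquitin ligase of the core complex, was at 23.8, 25.7 and 24.1 TPM. By CPM it was at 24.9, 27.2 and 27.2, with replicate 1 the lowest. Fancm, the translocase that brings the core complex to DNA, was at 11.4, 10.8 and 7.62 TPM, or 2.51-fold below Fancl (log2 -1.33 ± 0.30, SD, n = 3). The pair that FANCL ubiquitinates was unequal. Fanci was at 22.0, 20.6 and 15.4 TPM and Fancd2 at 10.7, 9.64 and 5.74 TPM, a 2.28-fold difference (log2 -1.19 ± 0.21, SD, n = 3). The other core complex genes were Fance at 20.8 ± 0.246 TPM, Fancg at 15.6 ± 0.623 TPM, Fanca at 12.3 ± 1.55 TPM and Fancf at 9.85 ± 0.315 TPM (SD, n = 3 for each).

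The end-joining genes were led by the Ku subunits, which cap broken ends. Xrcc5, for the 80 kDa subunit, was at 156, 148 and 129.5 TPM, and Xrcc6, for its partner, at 64.6, 63.5 and 58.3 TPM. Xrcc5 exceeded Xrcc6 2.33-fold (log2 1.22 ± 0.06, SD, n = 3), or 1.71-fold with the longest transcripts. Lig4, the ligase of this route, was at 16, 16.7 and 13.9 TPM, and its scaffold Xrcc4 at 19.8, 19.8 and 19.9 TPM. Prkdc, the catalytic subunit of DNA-PK that Ku recruits, was the lowest of the 5 at 5.82, 6.05 and 4.39 TPM, 2.89-fold below Lig4 (log2 -1.53 ± 0.12, SD, n = 3).

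Single-strand break repair held the highest gene of the whole set. Parp1, on chromosome 1 from 180568924 to 180601254, plus strand, the sensor that marks nicks with poly(ADP-ribose), was at 169.6, 163 and 128 TPM. Its paralog Parp2 was at 24.0, 24.5 and 22.0 TPM, 6.49-fold lower (log2 2.70 ± 0.14 for Parp1 over Parp2, SD, n = 3), and Parp3 at 6.25 ± 0.239 TPM (SD, n = 3). Lig1, the ligase of replication and long-patch repair, was at 128, 128 and 111 TPM. Lig3, which seals nicks with XRCC1, was at 43.9, 43.4 and 33.4 TPM, 3.06-fold below Lig1 (log2 1.61 ± 0.11 for Lig1 over Lig3, SD, n = 3). Xrcc1, the scaffold of this step, was at 57.3, 55.3 and 56.7 TPM.

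All 7 nucleotide excision repair genes were expressed. By union exons Ercc3 and Ercc2, the helicases of TFIIH that open DNA around a lesion, led at 62.4 ± 5.87 TPM and 39.4 ± 1.70 TPM (SD, n = 3 for each). The paired nuclease genes were unequal: Ercc1 was at 26.6, 26.3 and 28.0 TPM and Ercc4, which holds the active site, at 12, 12.6 and 9.73 TPM, 2.37-fold lower, or 4.09-fold with the longest transcripts. Ercc5, the nuclease for the other side of the lesion, was at 17.4 ± 1.44 TPM (SD, n = 3). By union exons the lowest were Ercc8 and Ercc6, which couple repair to transcription and are known from Cockayne syndrome. They were at 8.83 ± 0.519 TPM and 6.26 ± 0.790 TPM (SD, n = 3 for each). Part of this order depends on the length taken. With the longest transcripts, mean levels put Ercc1 (44.5 TPM) above Ercc2 (33.5 TPM) and Ercc8 (15.6 TPM) above Ercc4 (10.9 TPM). Ercc3 stayed the highest and Ercc6 the lowest.

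In mismatch repair, Msh6 far exceeded Msh3. MSH6 serves the recognition of single mismatches and MSH3 that of larger loops. Msh6, on chromosome 17 from 87975062 to 87990892, plus strand, was at 146, 144 and 118 TPM and Msh3 at 12.2, 11.9 and 9.28 TPM. Msh6 was 12.3-fold higher than Msh3 (log2 3.62 ± 0.04, SD, n = 3), or 4.75-fold with the longest transcripts. Pms2, a MutL endonuclease subunit, was at 11.2, 11.6 and 9.47 TPM. Pms1 was at 15.8, 14.4 and 11.9 TPM, with Pms2 1.30-fold below it by union exons and 2.44-fold below it with the longest transcripts. Mlh3 was at 14.6 ± 2.75 TPM (SD, n = 3). The meiotic genes were low: Msh5 had 152, 156 and 180 counts, with replicate 2 the highest by CPM (2.44, 3.41 and 3.03 CPM), and Msh4 lay at 0.28 to 0.32 CPM.

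**Figure D3:**
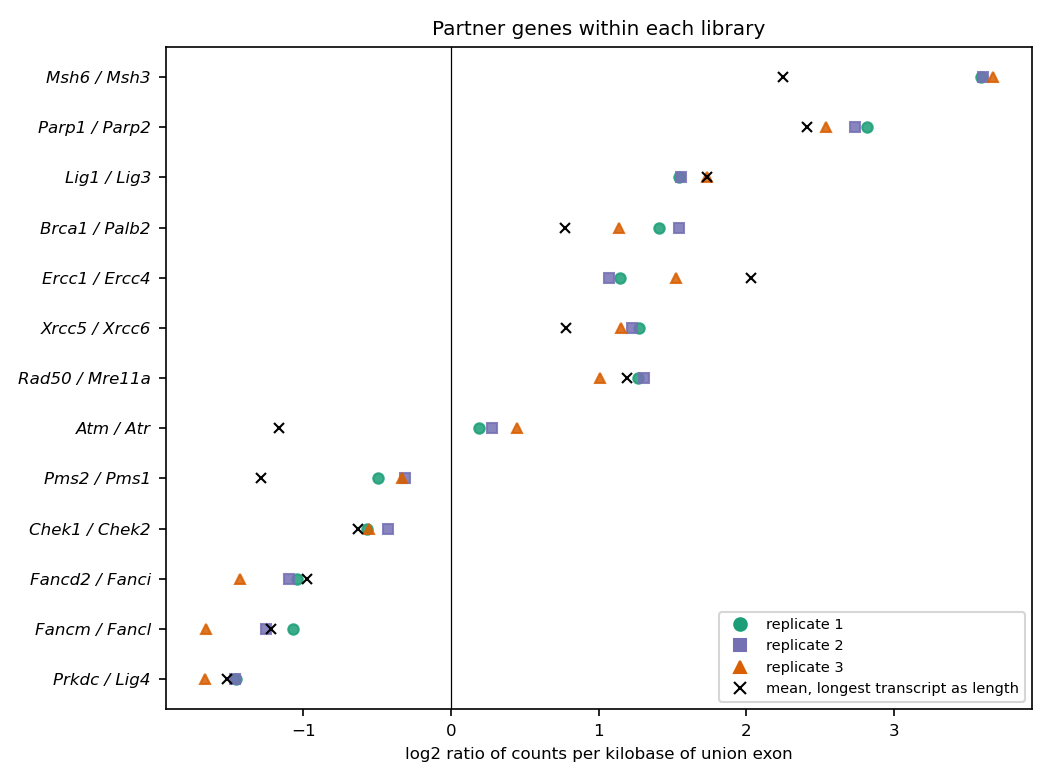
Log2 ratios of 13 pairs of partner genes per kilobase of union exon in each library (coloured points) and their mean with the longest transcript as the length (crosses). In each pair the 3 libraries lie on the same side of 0, and the Atm to Atr cross lies on the other side.

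4 symbols matched the name patterns without being core repair factors, among them Rad51ap2, with no counts, and Fancd2os, with 3 in all. Rad54l2, a helicase known as a partner of the androgen receptor, was at 15.9 ± 3.19 TPM and Parp4, the PARP of vault particles, at 14.4 ± 1.99 TPM (SD, n = 3 for each). Of the 65 genes, 30 have exon bases that overlap an exon of a gene on the opposite strand. For 10 the overlap with a single such gene covers 10% or more of the exon length, the largest being 25.1% of Lig3 with Rffl. Ercc2 overlaps both Gm26852 (24.6%) and Klc3 (17.8%). The strand setting of the counting is not given, so reads in those stretches cannot be assigned. Rad54b shares 35.8% of its exon length with Fsbp on the same strand.

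The libraries were then set against each other, with edgeR's quasi-likelihood test on all 11308 genes that passed its filter on low counts and Benjamini-Hochberg adjustment over all of them (threshold 0.05). Of the members, 62 passed that filter, all but Mgmt, Rad51ap2 and Fancd2os. Each comparison has 1 library on one side, which is assumed to vary like the others, and 1 residual degree of freedom. The calls and p-values therefore describe these libraries and not a condition. With edgeR no member was called in replicate 1 or replicate 2, where 0.0265% of all genes were called higher and 0.0531% lower for replicate 1, and 0.0265% in each direction for replicate 2. At an unadjusted p under 0.05 there were 1 and 0 members, and DESeq2 called none. In those comparisons replicate 3 is part of the other side and widens the error (median SE 0.19 and 0.21 over the members, against 0.07 for replicate 3), so the lack of calls does not show that replicates 1 and 2 were alike. Replicate 3 stood apart: 27 of the 62 members were lower (43.5%, where 26.8% of all tested genes were) and 3 were higher (4.84%, where 24.8% were). The median log2 difference was -0.10 over these members and 0.01 over all tested genes, or -0.05 and 0.01 with the trend on transcript length removed, as described further on. Fewer cells expressing a gene and less RNA per cell cannot be told apart in bulk samples.

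The largest falls in replicate 3 were those of Fancd2, Brca2, Wrn, Atr and Brca1. Fancd2, on chromosome 6 from 113531682 to 113597017, plus strand, was at 26.3, 24.0 and 15.3 CPM in replicates 1, 2 and 3. Its log2 difference for replicate 3 was -0.69 ± 0.07 (SE) with an edgeR adjusted p of 5.54e-20. Brca2, on chromosome 5 from 150522630 to 150570329, plus strand, was at 16, 15.3 and 9.75 CPM, with a log2 difference of -0.66 ± 0.08 (edgeR adjusted p 6.92e-14). Wrn was at 50.7, 47.3 and 34.1 CPM (log2 -0.49 ± 0.06, edgeR adjusted p 1.56e-16). In these 3 genes replicates 1 and 2 lay close together and replicate 3 well below both. Atr was at 83.7, 82.4 and 60.2 CPM (log2 -0.43 ± 0.04, edgeR adjusted p 1.49e-22) and Brca1 at 71.5, 71.6 and 52.2 CPM (log2 -0.42 ± 0.04, edgeR adjusted p 8.69e-21). The largest fall, that of Fancd2, was 1.61-fold.

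The 3 higher members were smaller changes. Ercc1 was at 25.6, 25.6 and 29.3 CPM (log2 0.22 ± 0.07, edgeR adjusted p 0.00239). Fancg was at 18.7, 17.7 and 20.3 CPM (log2 0.19 ± 0.07, edgeR adjusted p 0.0188), and Xrcc1 at 103, 101 and 111 CPM (log2 0.15 ± 0.04, edgeR adjusted p 0.000766). For each, replicate 3 was the highest library. DESeq2 called none of the 3, with log2 differences of 0.21, 0.18 and 0.14 that were close to those of edgeR. By role, and beside the share of 26.8% over all tested genes, 5 of 7 mismatch repair genes were lower in replicate 3 (among them Msh3, Msh6, Mlh3 and Pms1), 3 of 5 damage kinases and mediators (Atm, Atr and Trp53bp1), 2 of 3 sensors (Rad50 and Nbn), 4 of 10 Fanconi anaemia genes (Fanca, Fancd2, Fanci and Fancm) and 5 of 15 recombination genes (Brca1, Brca2, Rad54b, Blm and Wrn). The others were 2 of 5 end-joining genes (Prkdc and Xrcc5), 2 of 6 single-strand break genes (Parp1 and Lig3), 2 of 7 excision repair genes (Ercc4 and Ercc6), Rad54l2 and Parp4. With the length trend removed the median log2 difference went from -0.160 to -0.055 for mismatch repair. It went from -0.219 to -0.056 for kinases and mediators, from -0.168 to -0.289 for sensors and from -0.063 to -0.043 for Fanconi anaemia genes. For recombination genes it went from -0.082 to -0.06, and for end joining from -0.09 to -0.032. For single-strand break genes it went from -0.032 to -0.042, and for excision repair it changed sign, from -0.073 to 0.031. Over all tested genes it was 0.005 and 0.006.

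Transcript length moved with this difference. Over all 11235 tested genes with a length, the log2 difference of replicate 3 had a Pearson correlation of -0.50 and a Spearman correlation of -0.59 with log10 union exon length, and over the 62 members both were -0.62. These are descriptions across genes that share 3 libraries. The members are long, with a median of 5763 bases against 4300 over all tested genes. Of 14 members above 8000 bases 12 were lower (85.7%, where 64.3% of all such genes were), and of 25 between 5000 and 8000 bases 12 were (48.0%, where 41.5% were). Of 17 members between 3000 and 5000 bases 1 was lower (5.88%, where 18.6% were). The 6 members of at most 3000 bases went against the trend as a set: their median log2 difference was -0.10 where that of all such genes was 0.19. Fancf, the shortest at 1691 bases, was at 0.13, and the others, of 2533 to 2983 bases, were all negative. Lengths were not matched within this range. The part of RNA quality or library preparation in this trend was not tested.

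With the length trend removed from each library, 18 members were lower (29.0%, where 15.7% of all tested genes were) and 3 were higher (4.84%, where 16% were). Of the 27 lower members, 16 were lower in both fits, and Fancb and Ercc3 were lower in this fit alone. Fancd2, Brca2 and Wrn were still the 3 largest falls, at log2 differences of -0.54, -0.41 and -0.35 (edgeR adjusted p 2.73e-05, 0.000589 and 0.000197). Rad50 followed at -0.33 and Nbn, a short gene of 2533 bases, at -0.29 (edgeR adjusted p 1.56e-05 and 4.91e-05), so both called sensors kept their call. Of the kinases and mediators, Atm and Trp53bp1 lost their call: Atm went to -0.01 and Trp53bp1 to -0.14 (edgeR adjusted p 0.872 and 0.0584), while Atr kept a log2 difference of -0.13 (edgeR adjusted p 0.0214). Prkdc went to -0.05 (edgeR adjusted p 0.565). Of the higher members Xrcc1 kept its call at 0.23 (edgeR adjusted p 0.000156), Ercc1 and Fancg lost theirs at 0.15 and 0.17 (edgeR adjusted p 0.0627 and 0.0634), and Rad52 was called higher, at 0.21 (edgeR adjusted p 0.0461). With a GC trend removed as well, Rad52 was no longer called, at 0.23 (edgeR adjusted p 0.0518).

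**Figure D4:**
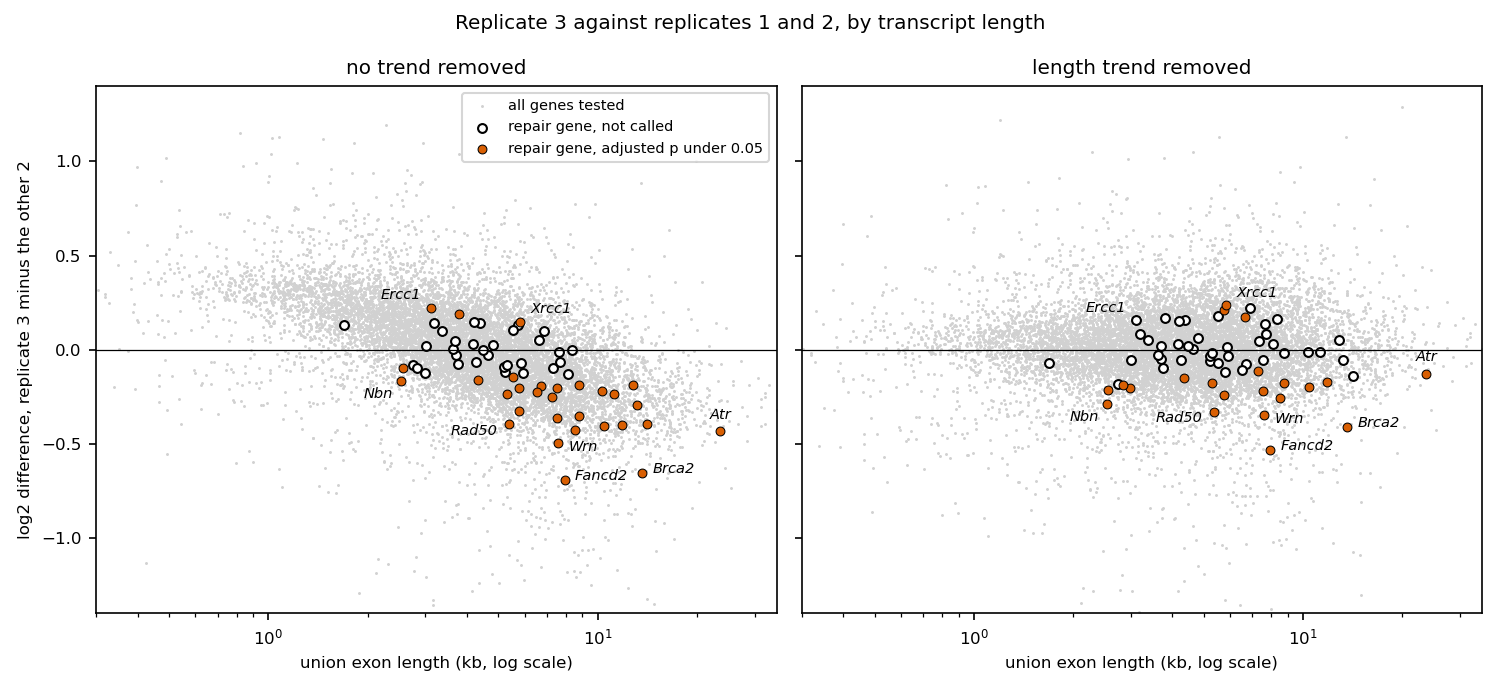
Log2 difference of replicate 3 against the other 2 libraries by union exon length, for all tested genes (grey) and the 62 tested repair genes (circles, filled where the adjusted p was under 0.05), before (left) and after (right) removal of the length trend. Genes beyond the axis limits are not drawn. On the left the longer repair genes follow the downward trend of all genes while the shortest lie below it, and Fancd2 and Brca2 lie below it on both sides.

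Many repair genes start back to back with another gene. In GENCODE M21, 26 of the 65 (40.0%) have a protein-coding gene on the opposite strand that starts within 1 kb, against 10.8% of 20551 listed protein-coding genes. Among genes that reached 1 CPM in every library the shares were 26 of 61 (42.6%) and 18.9%. Of the 26 partners, 24 were at 1 CPM or more, and 16 had a higher TPM than the repair gene. Prkdc lies 466 bases from Mcm4, a subunit of the replicative helicase, which was at 209 ± 24.2 TPM against 5.42 ± 0.900 TPM for Prkdc (SD, n = 3 for each). Atm lies 307 bases from Npat, a coactivator of histone genes, at 60.4 ± 10.1 TPM against 12.3 ± 1.70 TPM, and Palb2 lies 56 bases from Dctn5, a dynactin subunit, at 115 ± 2.41 TPM against 9.21 ± 0.971 TPM (SD, n = 3 for each). Chek2 and Hscb, a cochaperone gene, were closer, at 60.1 ± 3.32 TPM and 54.9 ± 3.78 TPM (SD, n = 3 for each). Parp2 and Xrcc1 had partners with few counts: Ccnb1ip1 had 0, 1 and 0 counts and Pinlyp 9, 3 and 2.

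**Figure D5:**
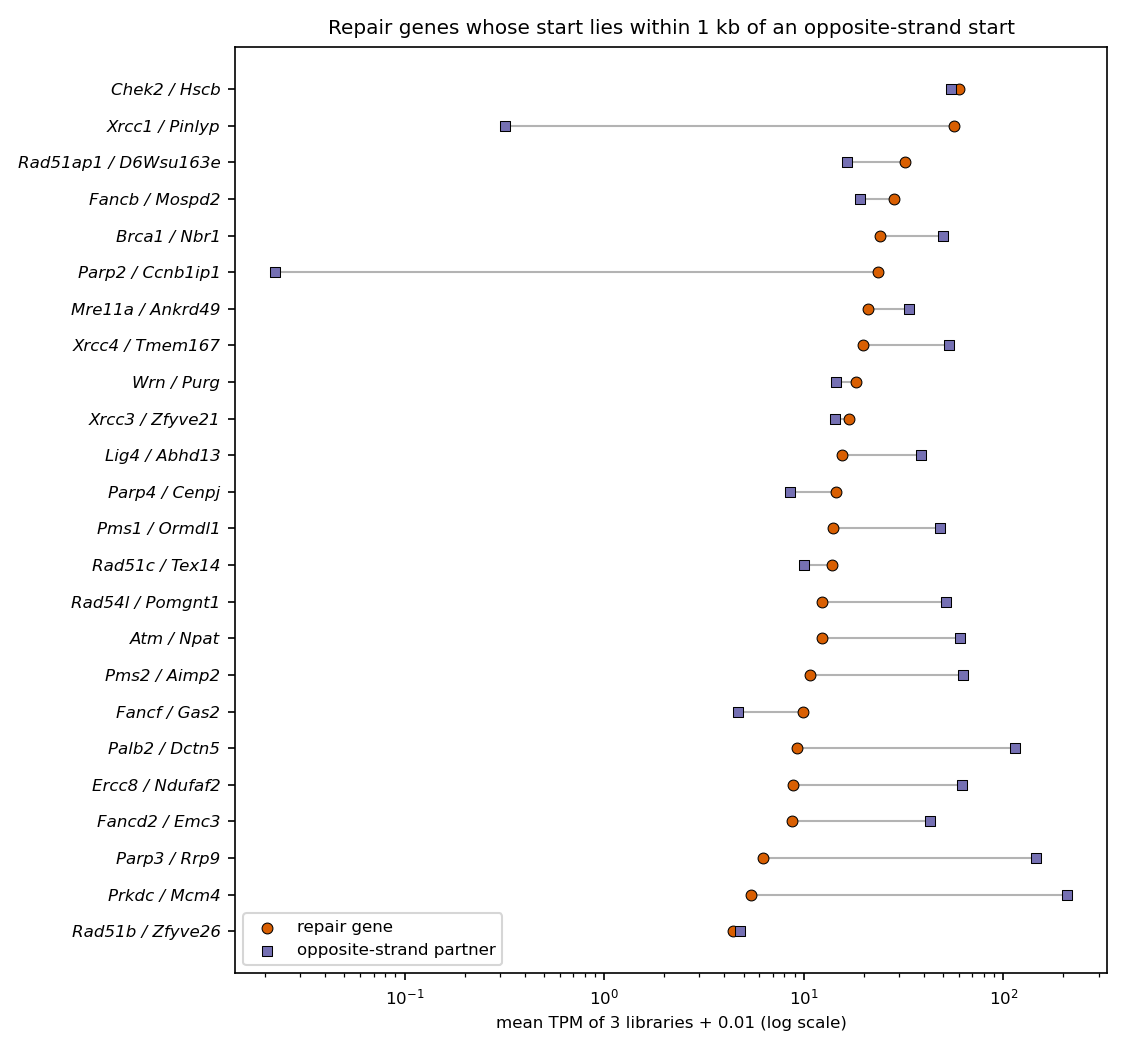
Mean TPM + 0.01 over 3 libraries (log axis) of 24 repair genes (circles) and of the gene that starts within 1 kb on the opposite strand (squares). The squares lie to the right of the circles in 14 pairs, and far to the left for Parp2 and Xrcc1.

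RefSeq promoters with a start within 500 bases of the GENCODE start were held for 48 of the 65 genes. In the 250 bases before the start, on either strand, 5 of these (10.4%) hold 1 of the words TTTGGCGC, TTTCGCGC, TTTCCCGC or TTTGCCGC, which resemble the site of the E2F cell cycle factors. The share was 2.60% over 14564 listed genes and 4.10% over the 6905 genes at 1 CPM or more. The 5 genes are Brca2, Chek2, Fancg, Msh3 and Msh5. The word CCAAT is in 27 (56.2%), against 36.3% and 38.6%, and the cyclic AMP response word TGACGTCA in 1, Brca2 (2.08%), against 2.29% and 3.29%. None of these words contains another, and a match is a description of the sequence, not a binding site.

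Partners of these genes were taken from lists of further repair genes, some of which share genes. Of 114 such genes 112 were at 1 CPM or more in all libraries, with a median of 29.5 TPM. Neil2, a DNA glycosylase, had 0 counts, and its relative Neil1 had 23, 4 and 11. In replicate 3, 37 of the 112 tested were higher (33.0%) and 36 lower (32.1%), where 24.8% and 26.8% of all tested genes were. With the length trend removed 19 were higher (17.0%) and 22 lower (19.6%), close to the 16% and 15.7% over all genes. The median log2 difference was 0.03 over these genes, against -0.10 over the members, and with the trend removed it was -0.005 against -0.053. The listed genes are shorter, with a median of 4847 bases. All 12 listed Fanconi associates were expressed, from Fan1, a nuclease, at 2.17 ± 0.780 TPM to Usp1, which deubiquitinates FANCD2, at 159.6 ± 14.5 TPM (SD, n = 3 for each). Of these 12, 7 were lower in replicate 3 and 3 higher, or 7 and 1 with the length trend removed. Fan1 was the largest fall, at 310, 226 and 154 counts (log2 -0.91 ± 0.14, SE, edgeR adjusted p 6.08e-10), and with the length trend removed was at -0.81 (edgeR adjusted p 1.03e-04).

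The other lists are given with their calls in replicate 3, beside 24.8% higher and 26.8% lower over all tested genes, and with their calls once the length trend was removed, beside 16% and 15.7%. Among 19 recombination partners 7 were higher and 6 lower, or 3 and 3 with the trend removed, and levels ran from Rmi1, of the Bloom complex, at 5.34 ± 0.326 TPM to Sfr1, a recombination cofactor, at 560.3 ± 12.9 TPM (SD, n = 3 for each). Of 19 damage signalling genes 5 were higher and 10 lower, or 3 and 5. Tipin, a fork protection factor, was the highest at 343 ± 5.64 TPM and Rnf8, a ubiquitin ligase of the break response, the lowest at 1.33 ± 0.0796 TPM (SD, n = 3 for each). Of the 20 base excision genes tested 9 were higher and 2, Tdg and Parg, lower, or 6 and 1, and Fen1, the flap nuclease, was the highest at 199 ± 3.01 TPM (SD, n = 3). Of 21 excision repair partners 9 were higher and 4 lower, or 7 and 4. Rad23b, which stabilises the damage sensor XPC, was the highest at 323 ± 45.6 TPM and Uvssa, of transcription-coupled repair, the lowest at 5.30 ± 0.325 TPM (SD, n = 3 for each).

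Among 11 mismatch repair partners 4 were higher and 2 lower, or 1 and 1 with the trend removed, from Pold4, a polymerase delta subunit, at 10.8 ± 0.456 TPM to the sliding clamp Pcna at 459 ± 12.8 TPM (SD, n = 3 for each). Of 9 translesion genes 1, Mad2l2, was higher and 6 lower, or 0 and 2, Polh and Rev1. The translesion polymerase Poli was the highest of them at 42.6 ± 3.06 TPM and Polq, of end joining by short homology, the lowest at 9.97 ± 1.84 TPM (SD, n = 3 for each). Of 7 end-joining partners 2, Dclre1c and Polq, were lower, and none with the trend removed. Their levels ran from Aplf, an end-joining scaffold, at 9.79 ± 0.582 TPM to the polymerase Poll at 27.1 ± 0.559 TPM (SD, n = 3 for each). Of 3 further RecQ helicases, from Recql5 at 11.4 ± 1.31 TPM to Recql at 32.0 ± 2.76 TPM (SD, n = 3 for each), Recql5 was lower, and it too lost its call. Alkbh2 and Alkbh3 were both higher, and with the trend removed were at log2 differences of 0.12 and 0.10 (edgeR adjusted p 0.154 and 0.243).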

How the data were processed

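The authors deposited unnormalized counts for each gene, in a separate table for each sample. Per the submitters' processing notes, bcl2fastq, cutadapt 4.2 and STAR were used with mm10. How reads were assigned to genes (program, gene models, strand) is not given in the sources used here. CPM used the library total. TPM used union exon lengths of GENCODE M21, built on GRCm38 as mm10 is. Of the symbols, 23688 were found there as such, 466 by a synonym, and 313 were not found. Each library was set against the other 2 with edgeR 4.0.16 in R 4.3.3 (quasi-likelihood, TMM, filterByExpr), and the test was checked on simulated data. The simulated libraries held no length trend, so that check does not cover the trend seen in replicate 3. An SE is the log2 difference over the square root of the F statistic. The length trend was a loess fit (span 0.3) per library, entered as offsets. Alternatives were RLE or no scaling, no filter, DESeq2 1.42.0, length and GC trends removed, other detection limits, other gene lengths and leaving out each replicate. Promoter sequences are from RefSeq (GRCm38.p6). Python 3.11.15, pandas 2.3.3 and SciPy 1.17.1 were used.

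The members, lists and ratios were chosen with earlier results of these data known. Some genes are not reported here. Otherwise, values in every library are given for members of the 16 ratios, the 5 highest members per kilobase, members under 1 CPM and, per library comparison, the 5 largest called rises and falls. Listed partners are named if they are the highest or lowest of their list or at 0. The neighbours of Mgmt, the promoters printed, the motif words and some other genes named were chosen after values were seen. Symbols of the lists that the tables do not hold, Cenps, Cenpx, Paxx and Shld1 to Shld3, were not analysed here.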

Additional observations from a re-analysis of the deposited data

How the results depend on the processing

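No paired analysis was possible because all 3 samples belong to 1 group. The number of members expressed in all libraries, 61, was also 61 at limits of 0.5 CPM, 2 CPM or 1 TPM and without each replicate in turn. The number of members lower in replicate 3, 27, was 17 with length and GC trends removed and 17 with DESeq2. All 17 that DESeq2 called were among the 27. The number higher, 3, was 0 with DESeq2. The library comparisons could not be fitted with a replicate left out, since 2 libraries leave no residual degrees of freedom. As values without a test, the median log2 difference of the members in replicate 3 was -0.13 without replicate 1 and -0.11 without replicate 2. That of replicate 2, 0.065 with all libraries, was 0.127 without replicate 1 and turned to -0.009 without replicate 3. Without a length correction the log2 ratios of Fancm to Fancl, Chek1 to Chek2 and Atm to Atr turned to 0.30, 0.11 and -0.89, and with the longest transcripts that of Atm to Atr turned to -1.17, by the construction of these settings. Ercc6 turned to 0.049 with the length trend removed and to 0.066 with the GC trend removed too, where Msh3 turned to 0.003. Of the 30 members called in replicate 3, 13 kept their call in all 6 alternatives, the 5 largest falls among them. Members under 1 CPM are limited by depth.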
